A study of Mus musculus with 22 samples.

Results

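The 10 genes studied here, which mark eosinophils by their granule proteins, surface receptors and lipid enzyme, were followed through mouse lungs given the allergen ovalbumin (OVA), particulate matter (PM) from a goat farm, both or neither. They were Prg2, Epx, Rnase2a, Ear1, Ear2, Ear6, Siglecf, Ccr3, Il5ra and Alox15, chosen by symbol, and they were 10 of 24405 gene rows in the joined count tables. All 10 were found. Eosinophils are white blood cells that mature in bone marrow under interleukin 5, enter the airways along gradients of eotaxin chemokines, and carry granules filled with cationic proteins, a peroxidase and ribonucleases. They are rare in the resting mouse lung and accumulate there in allergic airway disease. Part of this gene set is shared with macrophages: the lectin Siglec-F is carried by alveolar macrophages as well as eosinophils, and macrophages of the mouse also transcribe Ear genes and Alox15.

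C57BL/6 mice gave caudal lung lobes (right side), from which polyadenylated RNA was sequenced in 22 libraries. The labels cross a sensitization label (saline or OVA) with a challenge label (PM or no PM), which gave 6 libraries of saline lungs without PM, 5 of saline lungs with PM, 6 of OVA lungs without PM and 5 of OVA lungs with PM. The series' design text speaks of 5 samples in each group, while the groups without PM have 6 labelled libraries, all of which were used. The PM dose was 3 µg. The protocol text also names OVA/Sal and OVA/OVA mice, so that the saline arm can be read as sensitized mice that were challenged with saline, and no label gives age or sex. Nothing in the labels says that the libraries came from separate animals, and p-values measure the spread between these libraries only. The sample codes of the libraries with PM belong to another number series than those without, so that PM and any difference between the series cannot be told apart.

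The libraries held between 0.302 M and 28.01 M counts (median 12.5 M). The 3 libraries under 2 M were replicates 4 (0.302 M) and 5 (1.13 M) of the OVA lungs with PM and replicate 4 (1.84 M) of those without. In the shallowest, 3 counts corresponded to 9.92 per M counts, so that the 0 counts of Prg2, Epx, Ear6 and Il5ra there set no low level. A pair of OVA libraries, replicate 2 without PM and replicate 4 with PM, stood apart as the lowest of their groups for Rnase2a. Replicate 2 without PM was also the lowest of its group for Prg2 and Epx, while replicate 4 with PM, at 0 counts of both, has an upper limit of 12.2 per M counts that lies above other libraries of its group. The same pair was lowest for the summed level of 8 markers of alternatively activated macrophages, at 3128 CPM against 10432 CPM in the next lowest library without PM, and at 4952 CPM against 22886 CPM with PM. Replicate 4 of the OVA lungs without PM held the highest sum of 12 alveolar macrophage markers of any library, 2477 CPM. CPM stands throughout for counts per M counts of a library after scaling by trimmed means of M values (TMM). In these bulk samples, fewer eosinophils and less RNA per eosinophil cannot be told apart.

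Positions are those of GENCODE M21 on the mouse build GRCm38, where all 10 genes are annotated as protein coding. Rnase2a (chr14:51255262-51256112), Ear1 (chr14:43818765-43875517), Ear2 (chr14:44102654-44103534) and Ear6 (chr14:51853699-51854643) belong to the ribonuclease A family on chromosome 14. Prg2 lies at chr2:84980461-84983632, Epx at chr11:87864000-87875536, Alox15 at chr11:70344152-70352031, Siglecf at chr7:43351341-43359531, Ccr3 at chr9:124021972-124031689 and Il5ra at chr6:106710357-106749037. The longest transcripts of Ear1 and Ear2 were 96.1% identical over their alignment. Of all 75-base windows, the length of the reads, 39.3% in Ear1 and 23.4% in Ear2 also occurred in another gene, Ear10 and the pseudogenes Ear-ps2 and Ear-ps9 included, so that the split of reads between Ear1 and Ear2 is uncertain. Rnase2a shared 0 of its windows with another gene, although its transcript was 78.3% identical to that of Ear1.

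GATA1 is the transcription factor that eosinophils need to form, and the core of its DNA motif is GATAA. The promoter window from 250 bases before to 50 bases after the start of each gene was therefore read from RefSeq (GRCm38.p6), which gave entries for 8 of the 10 genes, without Prg2 and Alox15. GATAA, on either strand, occurred in 7 of these 8 windows and in 25.8% of all 27025 promoter windows. Of the 7 matches, 4 lay in 1 stretch that the related ribonuclease genes share. The 7 are therefore not independent, and their share cannot be weighed against that of all windows. A match is a description of the letters and not a site. The windows below are shown 5′ to 3′ on the strand of the gene, with GATAA or its reverse complement TTATC in capitals. They were chosen because Rnase2a differed most between the groups and Ear1 was called in no comparison, and because Ccr3 and Il5ra encode the receptors for eotaxin and interleukin 5. Epx was the 1 window of the 8 without a match.
Rnase2a: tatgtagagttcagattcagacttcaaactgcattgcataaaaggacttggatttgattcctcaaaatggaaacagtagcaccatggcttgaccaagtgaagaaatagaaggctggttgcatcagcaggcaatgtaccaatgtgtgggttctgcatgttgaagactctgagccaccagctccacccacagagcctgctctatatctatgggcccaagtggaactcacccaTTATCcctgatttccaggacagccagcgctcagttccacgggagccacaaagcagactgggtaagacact
Ear1: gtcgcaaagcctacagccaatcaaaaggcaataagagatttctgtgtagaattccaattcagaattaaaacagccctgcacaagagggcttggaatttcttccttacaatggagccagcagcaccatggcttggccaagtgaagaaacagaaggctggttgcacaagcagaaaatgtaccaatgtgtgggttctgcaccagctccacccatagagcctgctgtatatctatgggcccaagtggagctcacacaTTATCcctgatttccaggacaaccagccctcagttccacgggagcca
Ccr3: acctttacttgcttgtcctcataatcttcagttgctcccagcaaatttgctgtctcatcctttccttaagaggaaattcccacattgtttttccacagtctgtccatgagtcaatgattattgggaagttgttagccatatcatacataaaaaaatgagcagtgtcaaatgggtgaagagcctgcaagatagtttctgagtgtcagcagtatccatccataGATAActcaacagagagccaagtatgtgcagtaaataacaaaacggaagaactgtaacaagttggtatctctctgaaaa
Il5ra: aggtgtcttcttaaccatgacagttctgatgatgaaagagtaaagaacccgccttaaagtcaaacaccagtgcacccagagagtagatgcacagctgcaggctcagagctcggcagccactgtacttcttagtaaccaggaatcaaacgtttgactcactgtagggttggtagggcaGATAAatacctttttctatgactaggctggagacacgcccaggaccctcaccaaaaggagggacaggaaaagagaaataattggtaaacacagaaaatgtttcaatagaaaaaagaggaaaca
These are the minus strand at chr14:51256063-51256362 for Rnase2a, the minus strand at chr14:43819590-43819889 for Ear1 (the RefSeq start, which lies far inside the longer Ear1 gene annotated by GENCODE), the plus strand at chr9:124021721-124022020 for Ccr3 and the minus strand at chr6:106748988-106749287 for Il5ra. The match began 20 bases before the start in Rnase2a, 29 in Ccr3 and 73 in Il5ra, and 3 bases after it in Ear1. In the windows not printed, it began 6 bases after the start in Ear2, 2 in Ear6 and 12 in Siglecf. In the 4 ribonuclease genes it opened a stretch of 21 bases that all 4 windows shared letter for letter.
Shared stretch of Rnase2a, Ear1, Ear2 and Ear6: TTATCcctgatttccaggaca
The Ear1 and Ear2 windows were 97.0% identical over their alignment and those of Rnase2a and Ear1 66.4%.

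**Figure D1:**
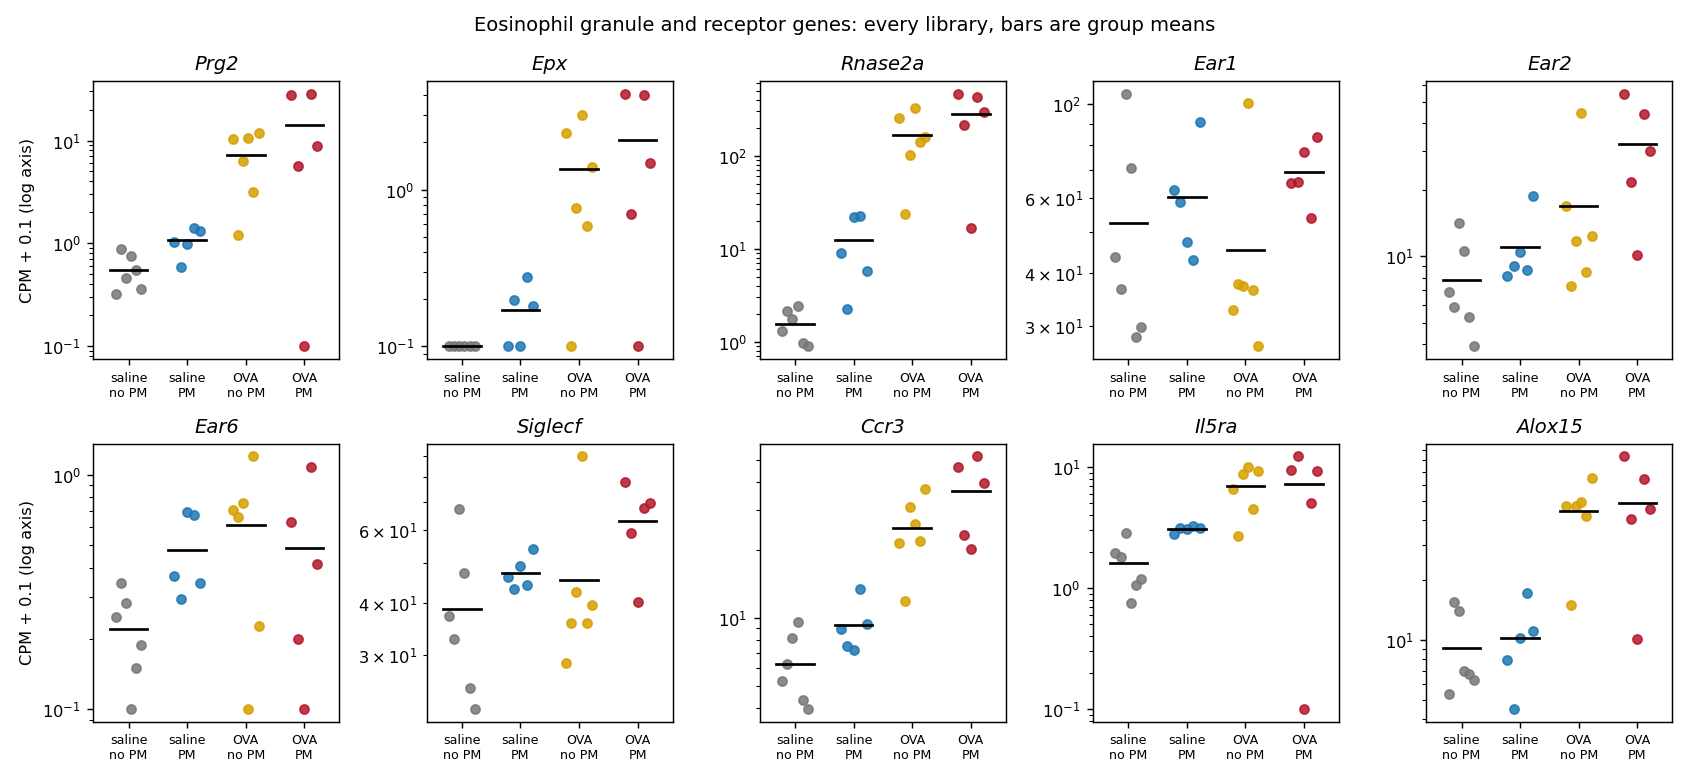
Level of each of the 10 genes in every library, as CPM + 0.1 on a log axis, with the 4 groups along the x axis and black bars for group means. Rnase2a goes from 0.787 to 2.29 CPM in saline lungs without PM to 23.4 to 325 CPM in OVA lungs without PM. The ranges of all 4 groups overlap for Ear1 and for Siglecf. For Siglecf, 4 of 5 OVA libraries with PM nonetheless lie above all 5 saline libraries with PM.

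The granule core protein and the peroxidase were under 1 CPM in every saline lung without PM. Prg2, which encodes the precursor of the major basic protein of the granule core, stood between 0.222 and 0.792 CPM in saline lungs without PM, with a median of 0.409. In saline lungs with PM it was 0.941, 0.488, 0.890, 1.32 and 1.23 CPM in replicates 1, 2, 3, 5 and 6. In OVA lungs without PM it ran from 1.12 to 11.6 CPM with a median of 8.23, and in OVA lungs with PM it was 27.5, 5.58, 0, 28.4 and 8.65 CPM in replicates 1, 2, 4, 5 and 6. Every OVA library without PM lay above every saline library without PM, and groups next to each other in level overlapped. Epx, the eosinophil peroxidase, had 0 counts in all 6 saline lungs without PM, 7 counts over the 5 saline lungs with PM, 79 over the 6 OVA lungs without PM and 85 over the 5 OVA lungs with PM. Its share of the pooled counts in OVA lungs without PM was 0.962 per M counts. That was 25.2-fold a floor of 3 counts over the saline lungs without PM, 0.0382 per M counts. This ratio pools the libraries of each group and leaves out their spread, so it is no lower limit of the difference. Epx was at 0 in replicate 2 of the OVA lungs without PM and, at a depth that sets no low level, in replicate 4 with PM.

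Rnase2a, an eosinophil-associated ribonuclease also known as Ear11, had the widest range of the 10 genes. In saline lungs without PM it lay between 0.787 and 2.29 CPM with a median of 1.41. In saline lungs with PM the libraries held 8.87, 2.15, 21.7, 22.5 and 5.65 CPM, so that replicate 2 remained within the range without PM and the other 4 lay above it. In OVA lungs without PM it ran from 23.4 to 325 CPM with a median of 151, above every saline library. In OVA lungs with PM it was 465.6, 212, 16.8, 431 and 296 CPM, where the 16.8 CPM of replicate 4 rested on 5 counts. Per kilobase of the longest transcript, the mean level of Rnase2a in saline lungs without PM was 2.12 CPM against 73.5 for Ear1, and in OVA lungs without PM 244 against 63.4.

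Ear1 and Ear2 are near copies of each other. Ear1 ran from 28.2 to 106 CPM with a median of 40.1 in saline lungs without PM, and from 26.8 to 101 CPM with a median of 36.7 in OVA lungs without PM. With PM it was 62.8, 58.7, 47.2, 43.0 and 90.4 CPM in saline lungs and 65.1, 65.6, 77.1, 53.9 and 83.5 CPM in OVA lungs. All 4 groups overlapped for Ear1. Ear2 was lower, with 3.80 to 14.04 CPM (median 6.30) in saline lungs without PM, 8.06, 8.98, 10.4, 8.58 and 18.7 CPM in saline lungs with PM, 7.25 to 44.6 CPM (median 11.99) in OVA lungs without PM, and 54.5, 21.6, 10.1, 44.1 and 30.0 CPM in OVA lungs with PM. Its group means were ordered as saline, saline with PM, OVA, OVA with PM, and neighbouring groups overlapped. Ear6 stayed near the detection limit, with 10, 25, 43 and 14 counts summed over those 4 groups. Of the other Ear genes of the mouse, Ear3, Ear4, Ear7, Ear12 and Ear14 had 0 counts in all 22 libraries, Ear5 was not measured, and Ear10 had at most 4 counts in a group.

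Among the receptors, those for eotaxin and interleukin 5 rose with OVA in lungs without PM, and the lectin did not pass that test. Ccr3, the receptor through which eotaxins draw eosinophils into tissue, lay between 3.85 and 9.47 CPM (median 5.67) in saline lungs without PM and was 8.87, 7.42, 7.12, 13.4 and 9.34 CPM with PM. In OVA lungs without PM it ran from 11.8 to 37.0 CPM (median 24.0), above every saline library without PM, and with PM it was 46.4, 23.3, 20.1, 51.9 and 39.6 CPM. Il5ra, the ligand-binding chain of the interleukin 5 receptor, was between 0.653 and 2.73 CPM (median 1.40) in saline lungs without PM and 2.69, 3.03, 2.97, 3.14 and 3.03 CPM with PM. The 5 libraries with PM were tight and 4 of them lay above all 6 without PM. OVA lungs without PM ran from 2.57 to 9.84 CPM for Il5ra (median 7.62), and OVA lungs with PM held 9.27, 12.1, 0, 4.90 and 9.15 CPM.

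Siglecf, a sialic acid-binding lectin with an inhibitory tail, was abundant in every group. It ran from 22.2 to 67.1 CPM (median 35.0) in saline lungs without PM and from 28.7 to 89.7 CPM (median 37.6) in OVA lungs without PM. With PM it was 46.1, 43.1, 49.0, 44.1 and 53.9 CPM in saline lungs and 77.7, 58.7, 40.2, 67.6 and 69.3 CPM in OVA lungs. With PM, 4 of 5 OVA lungs lay above all 5 saline lungs. Alox15, the 12/15-lipoxygenase that oxidizes arachidonic acid, lay between 5.25 and 15.4 CPM (median 6.75) in saline lungs without PM and was 7.79, 4.39, 10.1, 17.2 and 11.1 CPM with PM. In OVA lungs it was between 14.8 and 65.2 CPM (median 47.2) without PM and 83.7, 40.4, 10.1, 64.6 and 45.5 CPM with PM. The OVA groups each had 1 library within the saline range, replicate 2 without PM and replicate 4 with PM, the latter on 3 counts.

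OVA alone was compared with saline in lungs without PM, which asks what the allergen did in the absence of particles. Rnase2a rose by a log2 fold change of 7.03 ± 0.62 (SE, n = 6 and 6), or 130-fold, and Prg2 by 3.96 ± 0.59, or 15.6-fold. Alox15 rose 4.98-fold, Il5ra 4.54-fold and Ccr3 4.47-fold. With edgeR's quasi-likelihood test and Benjamini-Hochberg adjustment over all genes tested, the adjusted p was 4.57e-06 for Rnase2a, 0.000238 for Prg2, 7.52e-05 for Ccr3, 0.000246 for Alox15 and 0.000485 for Il5ra. Thus 5 of the 8 genes tested were called higher and 0 lower at an adjusted p of 0.05, where 14.4% of all 14632 genes tested were called higher and 9.27% lower. The median log2 fold change was 2.17 over these 8 genes and -0.02 over all genes tested. Prg2 passed the low-count filter only through the OVA libraries, in which it was high, and adds no independent support to that count. All 6 OVA libraries lay above all 6 saline libraries for Rnase2a, Prg2 and Ccr3, as they did for 6.9% of all genes tested.

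Ear2 was 2.07-fold higher with OVA, with an adjusted p of 0.0892 in edgeR, and was not called. At similar fold it was called by edgeR with all 4 groups in one fit (adjusted p = 0.0478), with the replicate block (0.0162) and with the length and GC offset (0.0106). The 95% interval of the log2 fold change ran from -0.43 to 0.83 for Siglecf and from -1.06 to 0.52 for Ear1. The value for Siglecf, 0.20, became -0.02 without replicate 4 of the OVA lungs. That for Ear1, -0.27, became 0.06 without replicate 3 of the saline lungs, so neither had a settled sign. Epx and Ear6 fell below the low-count filter. An exact two-sided permutation test of the library means gave p = 0.0152 for Epx and p = 0.0498 for Ear6, and over 10 such tests on these genes the Benjamini-Hochberg values were 0.0758 and 0.0996. Without a filter, edgeR gave Epx an adjusted p of 0.0113 and Ear6 one of 0.0204, and DESeq2 0.000608 and 0.0177. In the authors' deposited table, 6 of the 8 members with an adjusted p were higher, Ear2 added with a log2 fold change of 0.78 and an adjusted p of 0.0320. The deposited log2 fold changes were smaller in size than those of edgeR, at 3.57 against 7.03 for Rnase2a and 2.32 against 3.96 for Prg2. Only the calls are therefore set side by side.

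**Figure D2:**
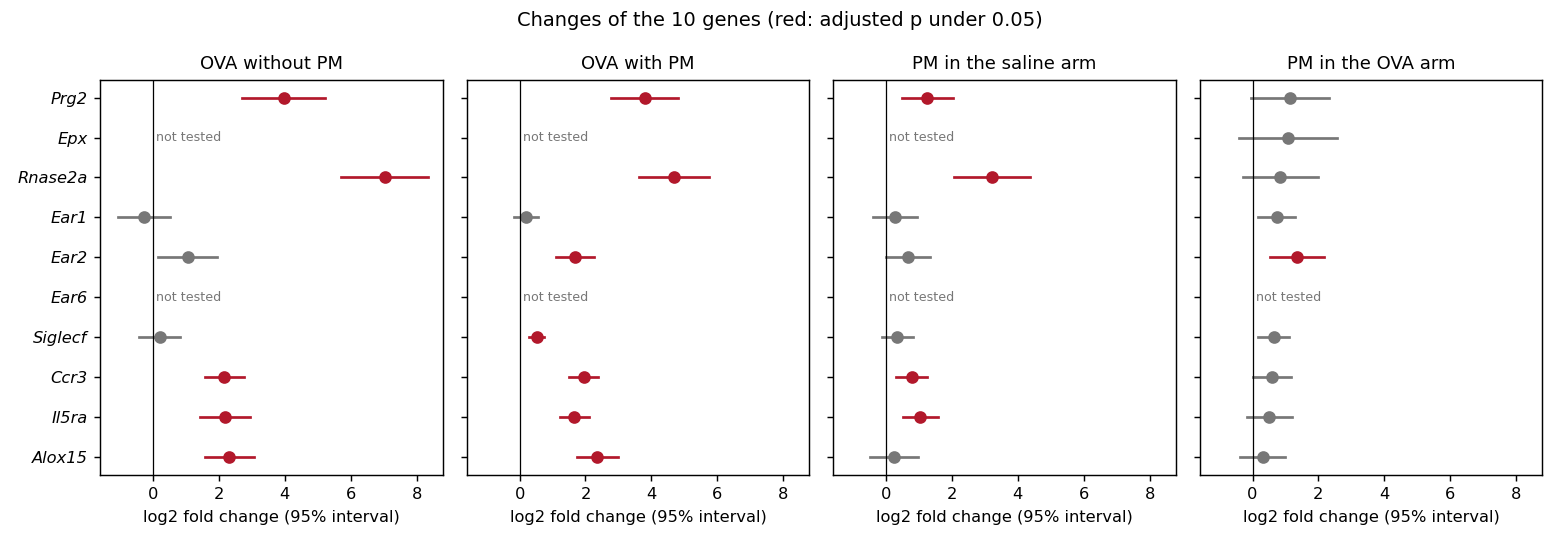
Log2 fold change of each gene with its 95% interval in 4 comparisons, red where edgeR's adjusted p was under 0.05. The 5 red genes of OVA without PM lie between 2.16 and 7.03, and in PM within the OVA arm Ear2 alone is red, at 1.34.

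PM alone was compared with no PM in the saline arm, which asks whether particles moved these genes without an OVA response. Rnase2a was 9.23-fold higher (log2 3.21 ± 0.54, n = 5 and 6), Prg2 2.37-fold (1.24 ± 0.36), Il5ra 2.05-fold (1.03 ± 0.25) and Ccr3 1.71-fold (0.77 ± 0.23). The edgeR adjusted p was 0.00501, 0.0400, 0.0225 and 0.0403 in that order. These 4 of 8 genes tested were called higher and 0 lower, where 5.47% of all 14496 genes tested were called higher and 7.37% lower. All libraries with PM lay above all without for 0 of the 8 and for 2.68% of all genes tested. Prg2 reached the level of the low-count filter in 4 libraries with PM and 1 without. The median log2 fold change was 0.72 over the 8 and 0.01 over all genes tested. Ear2 at 0.67, Siglecf at 0.34, Ear1 at 0.27 and Alox15 at 0.23 on the log2 scale were not called, with intervals from 0.01 to 1.34, -0.14 to 0.82, -0.40 to 0.94 and -0.50 to 0.96.

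These 4 calls were not equally firm, and the count ran from 1 to 6 of the 10 genes as single libraries were left out. It was 6 without replicate 3 of the saline lungs without PM, the highest library of its group for Ear1, Ear2 and Siglecf, which brought in calls of Ear2 and Siglecf. Rnase2a was called in 11 of 11 fits that left out 1 library, Il5ra in 7 of 11, Ccr3 in 2 of 11, and Prg2 in 3 of the 5 in which it passed the filter. Calls over all genes moved in these fits too. They ran from 247 higher and 243 lower without replicate 5 with PM to 1864 and 2248 without replicate 3 without PM. The main fit called 793 and 1069. In edgeR with an offset for length and GC content, Ccr3 (log2 fold change 0.59, adjusted p = 0.0999936) and Prg2 (0.93, adjusted p = 0.102) were no longer called, which left those of Rnase2a (2.66) and Il5ra (0.90). In the authors' deposited table, Rnase2a, Ccr3 and Il5ra were the 3 of 7 members with an adjusted p that were higher with PM. The deposited log2 fold change of Rnase2a was 0.98, against 3.21 in edgeR. Alox15 gave 0.23 with all libraries and -0.12 without replicate 5 of the saline lungs with PM, the deepest library. Epx reached 7 counts with PM in 3 of 5 libraries, with an exact two-sided permutation p of 0.121 and a smallest possible p of 0.00433.

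The levels with OVA alone and with PM alone were set side by side. Rnase2a was 13.6-fold higher in OVA lungs without PM than in saline lungs with PM (log2 3.77 ± 0.63, edgeR adjusted p = 0.000653), and every OVA library exceeded every PM library, as for 8.89% of all genes tested. Prg2 was 6.44-fold higher, Alox15 4.12-fold, Ccr3 2.57-fold and Il5ra 2.19-fold, with edgeR adjusted p-values of 0.00221, 0.000767, 0.00134 and 0.00978. These were 5 of 8 genes tested, against 20.4% of all 14609 genes called higher and 16.3% lower. The log2 differences of Ear1 (-0.58), Siglecf (-0.17) and Ear2 (0.34) were not called. Without replicate 4 of the OVA lungs, edgeR called Ear1 (-0.84, adjusted p = 0.00148) and Siglecf (-0.37, adjusted p = 0.00843) lower in OVA lungs, and with the replicate block it called them lower too (-0.81 and -0.39, adjusted p = 0.00514 and 0.00506).

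PM was then compared with no PM among OVA lungs, the comparison that asks whether particles added to the allergic state. All 9 genes tested had positive log2 fold changes, with a median of 0.73 against 0.00 over all genes tested, and 1 of the 9, Ear2, was called, where 2.27% of all 14657 genes tested were called higher and 6.87% lower. All libraries with PM lay above all without for 0 of the 9 and for 1.27% of all genes tested. Ear2 was 2.53-fold higher with PM (log2 1.34 ± 0.38, n = 5 and 6, edgeR adjusted p = 0.0412). The call was lost in 9 of 11 fits that left out 1 library, with DESeq2 (1.001, adjusted p = 0.208) and with the length and GC offset (0.80, adjusted p = 0.146). Siglecf stood at 0.64 ± 0.22 (edgeR adjusted p = 0.0771) and Ear1 at 0.73 ± 0.26 (edgeR adjusted p = 0.0825). Without replicate 4 of the OVA lungs without PM, edgeR called all 3, at 1.63 for Ear2, 1.01 for Ear1 and 0.85 for Siglecf. Calls over all genes moved in these fits too. The main fit called 332 genes higher, against 1376 without replicate 4 without PM and 0 without replicate 1 or replicate 6 with PM. With the length and GC offset 48 were called higher, and with DESeq2 543. Whether the gained and lost calls are particular to these 3 genes was not tested.

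The genes with the largest OVA responses did not pass the test for PM in the OVA arm. Rnase2a gave 0.84 with a 95% interval from -0.28 to 1.97 on the log2 scale, Prg2 1.13 (-0.05 to 2.31) and Epx 1.07 (-0.41 to 2.55). Ccr3 gave 0.59 (0.02 to 1.15), Il5ra 0.50 (-0.18 to 1.18) and Alox15 0.31 (-0.37 to 0.99), with edgeR adjusted p-values from 0.162 to 0.564 over these 6 genes. The upper ends exceeded 1, a doubling, for all of these but Alox15. For Rnase2a and Prg2, 2 libraries with PM lay above all 6 without. Without replicate 1 with PM, the log2 fold change was 0.50 for Prg2 and 0.28 for Epx. Scaling by library totals moved the median log2 fold change of all genes by -0.11 in this comparison. The authors' deposited table called 0 of 8 members in it.

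With PM in both arms, OVA lungs were compared with saline lungs. Prg2 rose 13.9-fold and Rnase2a 25.6-fold (log2 3.80 ± 0.48 and 4.68 ± 0.50, n = 5 and 5), Alox15 5.15-fold, Ccr3 3.86-fold, Ear2 3.22-fold, Il5ra 3.15-fold and Siglecf 1.43-fold. The edgeR adjusted p was 2.75e-05 for Prg2, 6.57e-06 for Rnase2a, 2.50e-05 for Alox15, 7.23e-06 for Ccr3, 0.000273 for Ear2, 2.67e-05 for Il5ra and 0.00172 for Siglecf. These were 7 of 8 genes tested, with 13.2% of all 14250 genes called higher and 9.57% lower, and all 7 were called in 10 of 10 fits that left out 1 library. With all 4 groups in one fit, edgeR did not call Siglecf (log2 0.50, adjusted p = 0.202). Ear1 was at 0.20 ± 0.17 and was not called. All 5 OVA libraries lay above all 5 saline libraries for Ccr3, as for 6.67% of all genes tested, and for the other 6 genes 4 of 5 did. Epx was not tested here by the main fit. Its exact two-sided permutation p was 0.0476, with a Benjamini-Hochberg value of 0.0996 over the 10 such tests. Without a filter, edgeR gave Epx an adjusted p of 5.76e-05, and DESeq2 gave 1.66e-05.

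Whether PM moved the genes by different amounts in the OVA and saline arms was tested as an interaction over all 22 libraries. edgeR called 0 of 9 genes tested, with 14 of 14942 genes called in either direction (0.0937%), and 1 of the 9 had an unadjusted p under 0.05. That gene was Rnase2a, at -2.34 ± 0.91 on the log2 scale (unadjusted p = 0.0171 in edgeR, not called after adjustment), the PM difference being smaller in the OVA arm. DESeq2 also called 0. A PM effect on these genes that differed between the arms was thus not shown, and the intervals for Prg2 (-1.78 to 1.55) and Alox15 (-0.998 to 1.13) were wide.

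Alveolar macrophage markers were set beside the 10 genes. The summed level of the 12 markers, all of them measured and none at 0 throughout a group, was 832 to 1465 CPM in saline lungs without PM, 1310 to 1424 with PM, 1095 to 2477 in OVA lungs without PM and 1648 to 2086 with PM. Ear2 and Siglecf had their highest library where this sum was highest in 3 of 4 groups, Rnase2a, Epx, Ear1 and Il5ra in 2, Alox15 in 1, and Prg2, Ear6 and Ccr3 in 0. Such a shared library is not particular to alveolar macrophages. Replicate 3 of the saline lungs without PM and replicate 4 of the OVA lungs without PM were also highest for neutrophil markers (642 and 970 CPM). They were highest for lung tissue genes as well (107980 and 64799 CPM). Of the 12 markers, 2 were higher in OVA without PM, 5 in PM in the saline arm, 2 in PM in the OVA arm, and 7 higher and 3 lower in OVA with PM. Over all genes tested, 14.4%, 5.47%, 2.27% and 13.2% were called higher in these comparisons, and 9.57% lower in the last. The part of alveolar macrophages in the levels of Siglecf, Ear1 and Ear2 was not tested. Prg2 and Epx, the defining granule genes, were at under 1 CPM and at 0 in saline lungs without PM, where Siglecf already had a mean of 38.5 CPM.

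**Figure D3:**
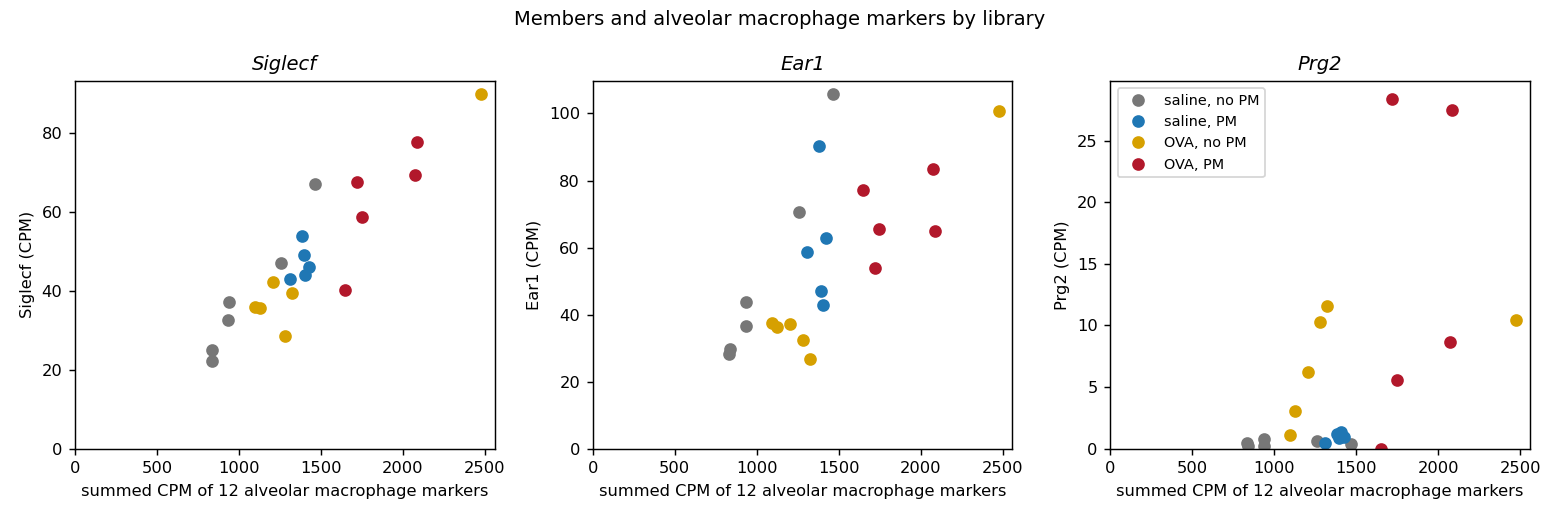
Siglecf, Ear1 and Prg2 in each library (CPM) against the summed CPM of the 12 alveolar macrophage markers, coloured by group. Siglecf is highest, at 89.7 CPM, in the OVA library without PM where the marker sum is highest at 2477 CPM, while Prg2 reaches its highest value, 28.4 CPM, in an OVA library with PM.

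Markers of some other cells, but not of all, were higher with OVA or PM as well. Over all genes tested, 14.4% were called higher and 9.27% lower with OVA in lungs without PM. With PM in saline lungs these shares were 5.47% and 7.37%. All 8 of 8 markers of alternatively activated macrophages were higher in OVA without PM and 6 of 8 in PM in the saline arm, and their sum ran from 395 to 1726 CPM in saline lungs without PM, 1367 to 3850 with PM, 3128 to 34089 in OVA lungs without PM and 4952 to 41993 with PM. Markers of B and plasma cells were higher for 8 of 10 and 7 of 10 in those comparisons, with sums of 580 to 851, 931 to 1427, 818 to 4311 and 660 to 5894 CPM in the 4 groups. Of 10 interstitial macrophage markers, 8 were higher with OVA and 5 with PM in saline lungs. For mast cells and basophils 2 of 10 were higher with OVA and 1 of 7 tested with PM in saline lungs, for neutrophils 1 of 9 and 2 of 8, and of 10 genes of lung tissue 4 were lower in each of these comparisons and 1 was higher with PM. With PM in OVA lungs, 0 markers of these 6 lists were higher, beside the 2 alveolar macrophage ones. Lower there were 3 of 10 lung tissue genes and 1 of 10 mast cell and basophil markers. Over all genes tested in that comparison, 2.27% were called higher and 6.87% lower. The part of these cells in the levels of Rnase2a, Alox15 and Il5ra was not tested.

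Within the groups, the 10 genes did not vary as one block. Deviations from the group means in log2 CPM were compared over the 19 libraries of at least 2 M counts, in which 8 of the genes had a mean of at least 1 CPM. Of 28 pairs, 12 had a Pearson r with an adjusted p under 0.05 in a permutation test of 100000 shuffles within groups. The share over all pairs of genes was not computed, so the count is not one of links particular to the set. By r among 14345 genes, Alox15 ranked 34 and Rnase2a 117 for Prg2. Siglecf ranked 42 for Ear1 and Ear1 196 for Siglecf, so many genes outside the set were closer. Prg2 went with Alox15 (r = 0.79, rho = 0.76, permutation p adjusted over 28 pairs = 0.00784 and 0.00896) and with Rnase2a (r = 0.72, rho = 0.66, adjusted permutation p = 0.00805 and 0.0164). Leaving out the 2 libraries farthest from the median of Prg2 left r at 0.68 and 0.59. Ear1 went with Siglecf (r = 0.83, rho = 0.64, adjusted permutation p = 0.00805 and 0.0406), with r = 0.71 after the same step. Between Prg2 and Ear1 r was -0.11 and rho -0.20 (adjusted permutation p = 0.612 and 0.461). The libraries share depth and RNA preparation, and Ear1 and Ear2 share reads.

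**Figure D4:**
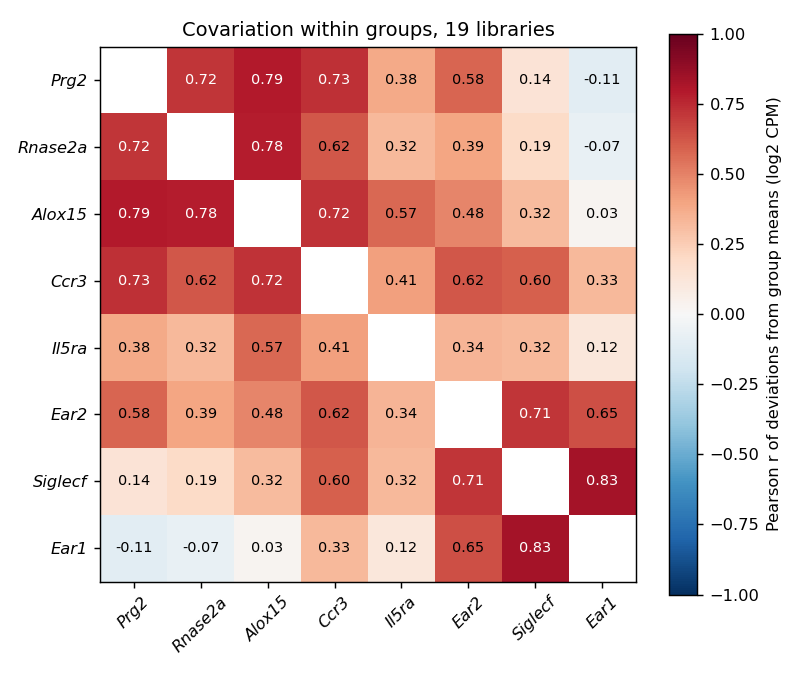
Pearson r between the deviations of 8 genes from their group means in log2 CPM, over 19 libraries, coloured from -1 to 1. Prg2, Rnase2a, Alox15 and Ccr3 hold r of 0.62 to 0.79 among themselves, Siglecf and Ear1 0.83, and Prg2 and Ear1 -0.11.

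The genes closest to each member by the same measure, among 14346 with a mean of at least 1 CPM, differed from member to member. For Prg2 they were Mapkapk3 (r = 0.94), Gapt (0.92) and Galnt6 (0.92), and for Rnase2a Capn9 (0.90), Ttc39c (0.88) and Fxyd4 (0.87). For Alox15 they were Adam8 (0.95), AA467197 (0.90) and Zc3h12a (0.89), for Ccr3 1600014C10Rik (0.88), Lcp2 (0.88) and Samsn1 (0.88), and for Il5ra Plekhs1 (0.86), Cxcl5 (0.86) and Jchain (0.85), the joining chain of polymeric antibodies. Ear1 was closest to Fpr1 (0.91), Ctsf (0.91) and Fcgrt (0.90), Ear2 to 6330416G13Rik (0.91), Rassf4 (0.90) and Slc15a3 (0.90), and Siglecf to Prdx5 (0.92), AF251705 (0.92) and Cox17 (0.92). These values are the highest of many and are given as a description.

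Ligands and receptors that feed eosinophils were counted beside the set. Of 20 listed genes for growth, recruitment and shared receptors, 13 of 16 tested were higher with OVA in lungs without PM, 6 of 15 with PM in saline lungs, 1 of 18 with PM in OVA lungs and 13 of 15 with OVA in lungs with PM, and 0 were lower. The list's median log2 fold changes were 0.83, 0.31, 0.22 and 0.79, beside medians of all genes within 0.02 of 0. The eotaxin Ccl11 averaged 3.63 ± 0.61 CPM (SD, n = 6) in saline lungs without PM, 10.4 ± 5.35 (n = 5) with PM, 43.5 ± 18.9 (n = 6) in OVA lungs without PM and 47.0 ± 21.9 (n = 5) with PM. It rose by 3.597 ± 0.33 with OVA and by 1.53 ± 0.28 with PM in saline lungs on the log2 scale (edgeR adjusted p = 6.14e-06 and 0.00843), and was at 0.28 ± 0.32 with PM in OVA lungs. The second eotaxin, Ccl24, rose by 2.14 ± 0.35 and 0.997 ± 0.25 in the same comparisons (edgeR adjusted p = 0.000484 and 0.0241). Il5, the eosinophil growth cytokine, averaged 0.123 ± 0.166 CPM (SD, n = 6) in saline lungs without PM, 0.738 ± 0.484 (n = 5) with PM, 0.715 ± 0.506 (n = 6) in OVA lungs without PM and 1.28 ± 1.53 (n = 5) with PM, on 12, 41, 64 and 37 counts in all.

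Transcription factors of the lineage and enzymes near Alox15 and the ribonucleases moved in both directions. Over all genes tested, 14.4% were called higher and 9.27% lower with OVA in lungs without PM. Among 9 factors, 4 were higher and 1 lower with OVA in lungs without PM: Cebpe, which granulocytes need for their late granule genes, rose by 2.63 ± 0.41, and Gata2 fell by 0.91 ± 0.22 on the log2 scale (edgeR adjusted p = 0.000368 and 0.00743). Gata1 was at 0.76 ± 0.26 (edgeR adjusted p = 0.0491). With PM, Gata2 fell by 0.72 ± 0.18 in saline lungs and by 0.88 ± 0.22 in OVA lungs (edgeR adjusted p = 0.0256 and 0.0284). Gata2 averaged 95.9, 58.6, 49.9 and 27.6 CPM in saline lungs without and with PM and OVA lungs without and with PM. Cdh5, a lung tissue gene, averaged 552, 354, 389 and 209 CPM in that order. Pecam1, another, was highest in saline lungs without PM and averaged 756, 687 and 492 CPM in the later groups. Not all lung tissue genes were lowest in OVA lungs with PM. Whether the fall of Gata2 belongs to eosinophils was not tested. In all, 2 of 9 factors were higher and 2 lower with PM in saline lungs, and 0 higher and 2 lower in OVA lungs. Of 8 tested lipoxygenase and leukotriene enzymes, 2 were higher and 1 lower with OVA, led by Alox12e, a second 12-lipoxygenase (3.80 ± 0.50), and Hpgds, a prostaglandin D synthase (1.36 ± 0.18), with edgeR adjusted p-values of 8.46e-05 and 9.75e-05. With PM, 0 of 7 and 0 of 8 were called in saline and OVA lungs. Of the other ribonucleases and granule paralogs, 4 of 17 listed could be tested: Rnase6 rose by 0.98 ± 0.19 and Rnase1 by 1.22 ± 0.34 with OVA, while Ang fell by 0.72 ± 0.17 and Rnase4 by 0.46 ± 0.16 (edgeR adjusted p = 0.00202, 0.0168, 0.00723 and 0.0481). With PM, Rnase6 rose in saline lungs (0.54 ± 0.13) and Rnase4 in OVA lungs (0.52 ± 0.14), with edgeR adjusted p-values of 0.0223 and 0.0375. Prg3, a second granule basic protein, had 10, 8, 17 and 10 counts in the 4 groups.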

How the data were processed

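The authors deposited raw read counts per gene and, per the file headers, log2 fold changes and adjusted p-values of their own comparisons, which were quoted and used for nothing else. Per the submitters' processing notes, bcl2fastq and mm10 were used, while aligner and counting tool are not given in the sources used here. Reads were 75 bases long and single-ended, and per the labels' protocols the libraries kept strand. Of 24421 rows, 16 with names turned into dates, 0.152% to 0.195% of a library's counts, were dropped, and 12 library columns repeated between tables were identical. Of the symbols, 23369 were matched to GENCODE M21.

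Each comparison had its own edgeR fit: the expression filter (minimum count 10, total 15), TMM scaling, the quasi-likelihood F test and Benjamini-Hochberg adjustment over all genes tested at 0.05. The interaction used all 4 groups. Standard errors were derived from F. Log2 CPM used a prior count of 2. The main fits did not pair libraries by replicate number, and whether the numbers pair libraries was not settled. Same-numbered libraries deviated together with r over 0.1 in 3 of 6, 2 of 5, 1 of 5, 1 of 4 and 1 of 5 pairs of the 5 comparisons. For OVA without PM, r ran from -0.20 to 0.72. There the replicate block called 2384 genes higher and 1854 lower, against 2100 and 1356 in the main fit. The fits were tested on simulated counts. Exact intervals and floors of 3 counts cover counting error only.

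All 10 members are named. Beside them stand lists of eosinophil growth and recruitment genes, lineage transcription factors, ribonuclease and granule paralogs, lipoxygenase enzymes and cell markers, with up to 3 genes of smallest p named per list, and the 3 nearest genes per member. Il5, Ccl24, Prg3, Ear10, Gata1, Rnase4, Cdh5, Pecam1 and the libraries said to stand apart were singled out after their values were seen. The members and lists were chosen with earlier results of these data known. Alternatives were DESeq2, its size factors, library totals, no filter, 1 CPM in 5 libraries, 1 fit of all groups, a replicate block, a length and GC offset (splines of 4 degrees of freedom per library, fitted on genes of at least 10 CPM), leaving out libraries under 2 M counts, and leaving out each library.

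Software was R 4.3.3 with edgeR 4.0.16 and DESeq2 1.42.0, and Python 3.11.15 with scipy 1.17.1, pandas 2.3.3, numpy 2.4.6 and Biopython 1.88.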

Additional observations from a re-analysis of the deposited data

Results flagged for a closer look

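In 4 of 39 sets of libraries examined, 1 library lay far from the others of its group by the gap between it and its nearest neighbour; chance gives such a gap in about 1 of 20 sets. Replicate 4 of the OVA lungs without PM did so for 3 genes: Ear1 stood at 100.8 CPM where the other 5 libraries held 26.8 to 37.6 CPM, Ear2 at 44.6 CPM where they held 7.25 to 16.8 CPM, and Siglecf at 89.7 CPM where they held 28.7 to 42.3 CPM. This library held 1.84 M counts and the highest sum of alveolar macrophage markers, 2477 CPM, and the part of either in these values was not tested. Replicate 6 of the saline lungs with PM held 18.7 CPM of Ear2 where the other 4 held 8.06 to 10.4 CPM, and its Ear1 was the highest of its group at 90.4 CPM.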

How the results depend on the processing

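The number of members called higher (for the interaction, in either direction) kept within 1.5 times its main value under every alternative run for OVA without PM (5), OVA with PM (7), OVA without PM against PM in saline (5) and the interaction (0). For PM in the saline arm (4) it was 2 with all 4 groups in one fit and 2 with the length and GC offset, and ran from 1 to 6 over fits that left out 1 library. For PM in the OVA arm (1) it was 0 with DESeq2, 0 with the offset, 3 without libraries under 2 M counts and 0 to 3 with 1 library left out. With the replicate block the counts were 6 for OVA without PM, 3 and 1 for PM among saline and OVA lungs, 7 for OVA with PM, 5 for OVA without PM against PM in saline, where Ear1 and Siglecf were called lower besides, and 0 for the interaction.

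Signs turned for values that were not called. Siglecf in OVA without PM was -0.0235 without libraries under 2 M counts and ran from -0.0235 to 0.43 with 1 library left out, and Ear1 ran from -0.56 to 0.0629. In PM in the saline arm, Ear1 was -0.12 with the offset and Alox15 ran from -0.12 to 0.49. In the interaction, Alox15 was -0.01893 by library totals and ran from -0.23 to 0.43, Ccr3 from -0.36 to 0.0184 and Prg2 from -0.73 to 0.19. The cause was not tested. Of the members' log2 fold changes, 593 of those with 1 library left out and 409 under other alternatives kept sign and call, while 24 and 10 lost a call and 9 and 9 gained one. Depth limited Epx and Ear6, and every value of replicate 4 of the OVA lungs with PM.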
